A study of Mus musculus with 6 samples.

Results

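Transcripts of 9 chemokine receptor genes, Ccr1, Ccr2, Ccr4, Ccr6, Ccr8, Ccr9, Cxcr3, Cxcr4 and Cxcr6, were compared between RBM3KO and WT innate lymphoid cells (ILCs) of the mouse lung. The genes were chosen by symbol as receptors that guide leukocytes into peripheral tissues, with the lymph node receptor Ccr7 left out. All 9 were among the 14416 genes of the deposited count table, and all 9 were among the 11382 genes that passed the filter on low counts. The cells were Lin-Thy1.2+ ILCs, that is, Thy1.2-positive cells without markers of other blood lineages, sorted from lungs of C57BL/6J mice. Their RNA was profiled by Smart-seq2, a full-length cDNA method for small amounts of polyA RNA, in 3 libraries from RBM3KO mice, which lack the cold-inducible RNA-binding protein RBM3, and 3 libraries from WT mice. Mice of both genotypes had been challenged with 25 µg of Alternaria alternata, a mould that evokes type 2 lung inflammation, 3 times over 7 days, and no unchallenged mice were analysed here. The sources used here give no age, no design of the Rbm3 allele and no statement on pooling of animals.

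Chemokine receptors are G protein-coupled receptors on the cell surface that steer a cell along a gradient of a chemokine ligand. Different lymphocyte classes carry different sets of them, so the set a cell transcribes is part of its address in the body. In mice CCR8 and CCR4 are best known from type 2 lymphocytes, CXCR3 from type 1 lymphocytes and natural killer (NK) cells, CCR6 from type 17 cells and B cells, and CCR9 from cells that home to the small intestine. CXCR6 is carried by ILC progenitors and many tissue-resident lymphocytes, CCR2 and CCR1 by monocytes and other myeloid cells as well as by some lymphocytes, and CXCR4 by most blood cells and their precursors.

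The total count of a library lay between 7498247 and 16936670 in RBM3KO and between 13339633 and 25068137 in WT. Levels are CPM, that is, counts relative to the library total, after TMM scaling, which corrects for library composition, and log2 fold changes are RBM3KO minus WT. Rbm3 itself stood at 26.5, 22.4 and 31.6 CPM in RBM3KO libraries, against 270, 314 and 293 CPM in WT libraries, so each library matched its label (edgeR adjusted p = 2.23e-06). The markers of the sorted cells were present, with the cytokine receptor chain gene Il2rg at 2736 ± 203 CPM in RBM3KO and 2079 ± 47.6 CPM in WT and the ILC regulator Id2 at 2067 ± 220 and 1700 ± 64.3 CPM (SD, n = 3 each). The CD3 chain gene Cd3g was also present at 243 ± 75.0 CPM in RBM3KO and 177 ± 28.4 CPM in WT. Cd3e stood at 20.7 ± 7.82 CPM in RBM3KO and 22.2 ± 9.22 CPM in WT. Lin- cells are meant to lack surface CD3 if CD3 is among the lineage markers, and transcripts do not measure surface protein. Which lineage antibodies were used is not stated in the labels. Nothing in them says that each replicate is its own animal, so the p-values cover the spread between these libraries, and that spread may be technical.

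None of the 9 receptors passed the test between RBM3KO and WT (edgeR quasi-likelihood test, Benjamini-Hochberg adjusted over all 11382 tested genes, threshold 0.05), where 1.25% of all tested genes did. At an unadjusted p under 0.05 there were 2 of the 9, Ccr8 and Cxcr6, against 12.3% of all tested genes. DESeq2 called 1 of the 9 (Ccr8, adjusted p = 0.00909) and limma-voom 0. The estimate was above 0 for 7 receptors and below 0 for Cxcr3 and Ccr6. The median log2 fold change was 0.39 over the 9 receptors and 0.01 over all tested genes.

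The 9 receptors are given here in 3 tiers of transcript level, of which the middle and lowest overlapped in WT libraries at Ccr1 and Cxcr3. Compared per kilobase of merged exons, so that longer genes do not count for more, Ccr8 stood at 1030 ± 163 and Cxcr6 at 944 ± 169 CPM per kilobase in RBM3KO libraries (SD, n = 3). In WT libraries Ccr8 had 735 ± 102 and Cxcr6 747 ± 76.9 CPM per kilobase. These were the top pair of the 9 in every library and overlapped each other within each genotype. Together they made up between 94.7% and 95.7% of the summed CPM per kilobase of the 9 receptors in RBM3KO libraries and between 94.3% and 95.3% in WT libraries.

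The middle tier held Ccr2, Ccr4 and Ccr1. Ccr2 had 37.0 ± 5.30 CPM per kilobase in RBM3KO and 31.9 ± 3.72 in WT, Ccr4 had 30.8 ± 8.85 and 23.5 ± 2.48, and Ccr1 had 16.5 ± 0.874 and 11.6 ± 6.31. Libraries of Ccr2 and Ccr4 overlapped in RBM3KO and not in WT, and Ccr1 lay below Ccr4 in every library of both genotypes. The lowest tier held Cxcr4, Cxcr3, Ccr6 and Ccr9, with means between 0.940 and 5.12 CPM per kilobase in RBM3KO and between 0.459 and 6.57 in WT. Within that tier the RBM3KO libraries of Cxcr4, Cxcr3 and Ccr6 overlapped and Ccr9 overlapped Ccr6. In WT libraries Cxcr3 overlapped Ccr1 above it and lay over Ccr6, Ccr6 and Cxcr4 overlapped, and Ccr9 lay below both. The lengths come from GENCODE M21, which may not be the annotation that the counts were made with, and the order of all 9 receptors was the same with the length of the longest-coding transcript.

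**Figure D1:**
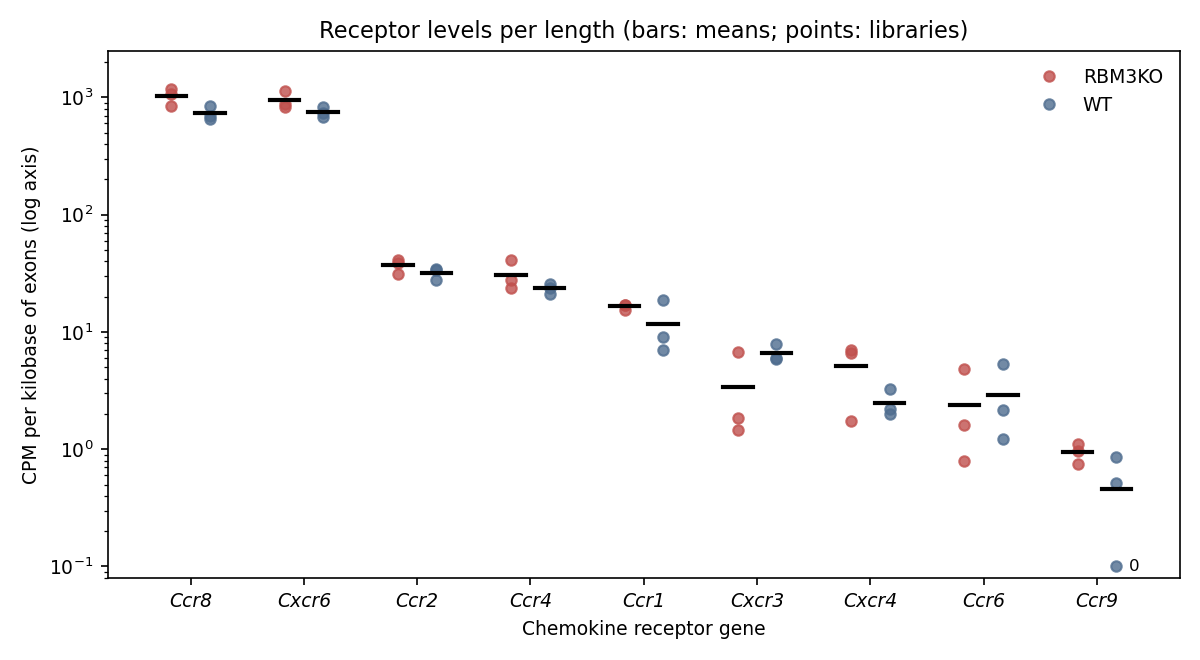
CPM per kilobase of merged exons on a log axis for each of the 9 receptor genes; points are libraries, bars are means, RBM3KO in red and WT in blue, and the point marked 0 is a library with no Ccr9 count, drawn at the foot of the axis. Ccr8 and Cxcr6 lie above the other receptors in all libraries, at means of 1030 and 944 CPM per kilobase in RBM3KO and 735 and 747 in WT.

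Ccr8, the receptor for CCL1 and, in mice, CCL8, was the one receptor whose libraries did not overlap between the genotypes. The gene lies on the plus strand at chr9:120092114-120094906 (mm10). It had 1252, 1002 and 1378 CPM in RBM3KO libraries 1, 2 and 3, against 824, 769 and 999 CPM in WT libraries 1, 2 and 3. All 3 RBM3KO libraries were above all 3 WT libraries, but RBM3KO library 2 lay next to WT library 3, and their counting intervals overlapped (987 to 1017 CPM and 987 to 1012 CPM, exact Poisson, 95%). The log2 fold change was 0.49 (SE 0.13, 95% interval 0.20 to 0.77), which did not pass the test over all genes (edgeR adjusted p = 0.129). Of the 9 receptors, 1 separated upward in this way, against 8.43% of all tested genes, and none separated downward, against 10.5%.

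Ccr4, the receptor for CCL17 and CCL22 (chr9:114490316-114504916, minus strand), had 126, 86.5 and 73.2 CPM in RBM3KO libraries and 80.0, 73.3 and 64.7 CPM in WT libraries. RBM3KO library 1 stood above the other 5, and the remaining libraries overlapped. RBM3KO minus WT came to a log2 fold change of 0.39 (SE 0.20, 95% interval -0.05 to 0.84, edgeR adjusted p = 0.472), and it was 0.14 without RBM3KO library 1 (edgeR adjusted p = 0.854).

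Cxcr6, the receptor for the membrane-bound chemokine CXCL16, had the highest CPM of the 9 receptors and ranked 63 by mean CPM among the 14416 genes. Its RBM3KO libraries had 1684, 2195 and 1588 CPM, against 1308, 1602 and 1418 CPM in WT libraries. RBM3KO library 3 lay just under WT library 2, and the other 2 RBM3KO libraries lay above all 3 WT libraries. This gave a log2 fold change of 0.34 (SE 0.12, 95% interval 0.06 to 0.61, edgeR adjusted p = 0.281). Cxcr6 (chr9:123806475-123811760, plus strand) lies inside Fyco1, an autophagy adaptor gene on the opposite strand, with 0 exon bases shared. Fyco1 had 37.1 ± 4.60 CPM in RBM3KO and 25.6 ± 4.78 CPM in WT, which did not pass the test (edgeR adjusted p = 0.399).

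Ccr8 and Cxcr6 took different turns among the libraries of both genotypes. Library 2 had the lowest Ccr8 and the highest Cxcr6 of its genotype in RBM3KO and in WT. Library 3 had the highest Ccr8 in both genotypes. The lowest Cxcr6 was in library 3 in RBM3KO and in library 1 in WT. The ratio of Ccr8 to Cxcr6, both per kilobase, was 1.22, 0.750 and 1.43 in RBM3KO libraries 1, 2 and 3 and 1.03, 0.789 and 1.16 in WT libraries 1, 2 and 3, so the genotypes overlapped. Summed over the 9 receptors, the level was 2046, 2079 and 2085 CPM per kilobase in RBM3KO libraries, against 1449, 1574 and 1663 in WT libraries. The sum is a description of these libraries, made up mainly of Ccr8 and Cxcr6.

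The summed levels of the ILC and the ILC2 markers were also higher in every RBM3KO library than in every WT library. The 5 ILC markers (Thy1, Ptprc, Il7r, Id2 and Il2rg) summed to between 5087 and 5197 CPM of the total count in RBM3KO libraries and between 4142 and 4203 in WT libraries, and 1 of the 5 rose in RBM3KO, where 0.246% of all tested genes did. That gene was Il2rg, at 0.40 ± 0.08 (log2 fold change ± SE, edgeR adjusted p = 0.0393). The Il2rg call was lost whichever of the 6 libraries was left out, and also without TMM (edgeR adjusted p = 0.0640). Il2rg and Id2 made up most of the sum, and Thy1, the marker of the sort, had 103 ± 7.17 CPM in RBM3KO and 104 ± 14.6 CPM in WT (edgeR adjusted p = 0.987). The 8 ILC2 markers summed to between 5300 and 5672 CPM in RBM3KO libraries and between 3754 and 4881 in WT libraries, with 0 of 8 past the test and a median log2 fold change of 0.55. Their estimates ran from 0.12 for the lineage factor gene Gata3 (edgeR adjusted p = 0.830) to 0.68 for Areg. Areg had 1628 ± 225 CPM in RBM3KO and 1016 ± 329 CPM in WT, and Gata3 had 695 ± 141 and 640 ± 54.0 CPM. The list mixes lineage genes with the effector genes Il13, Il5 and Areg, so its sum does not measure cell content alone. In a measure chosen after these values were seen, Ccr8 had 236, 191 and 268 counts per 1000 counts of the ILC markers in RBM3KO libraries, against 199, 189 and 244 in WT libraries. On the same scale Cxcr6 had 317, 418 and 309 in RBM3KO libraries, against 316, 393 and 346 in WT libraries. Per 1000 counts of the ILC2 markers, Ccr8 had 214, 182 and 258 in RBM3KO libraries, against 218, 208 and 209 in WT libraries. Cxcr6 had 287, 398 and 297 on that scale in RBM3KO libraries, against 346, 433 and 296 in WT libraries. Relative to either marker list, both receptors overlapped between the genotypes, and the part of ILC content in their CPM was not tested. In bulk samples fewer cells of a type and less RNA per cell cannot be told apart.

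**Figure D2:**
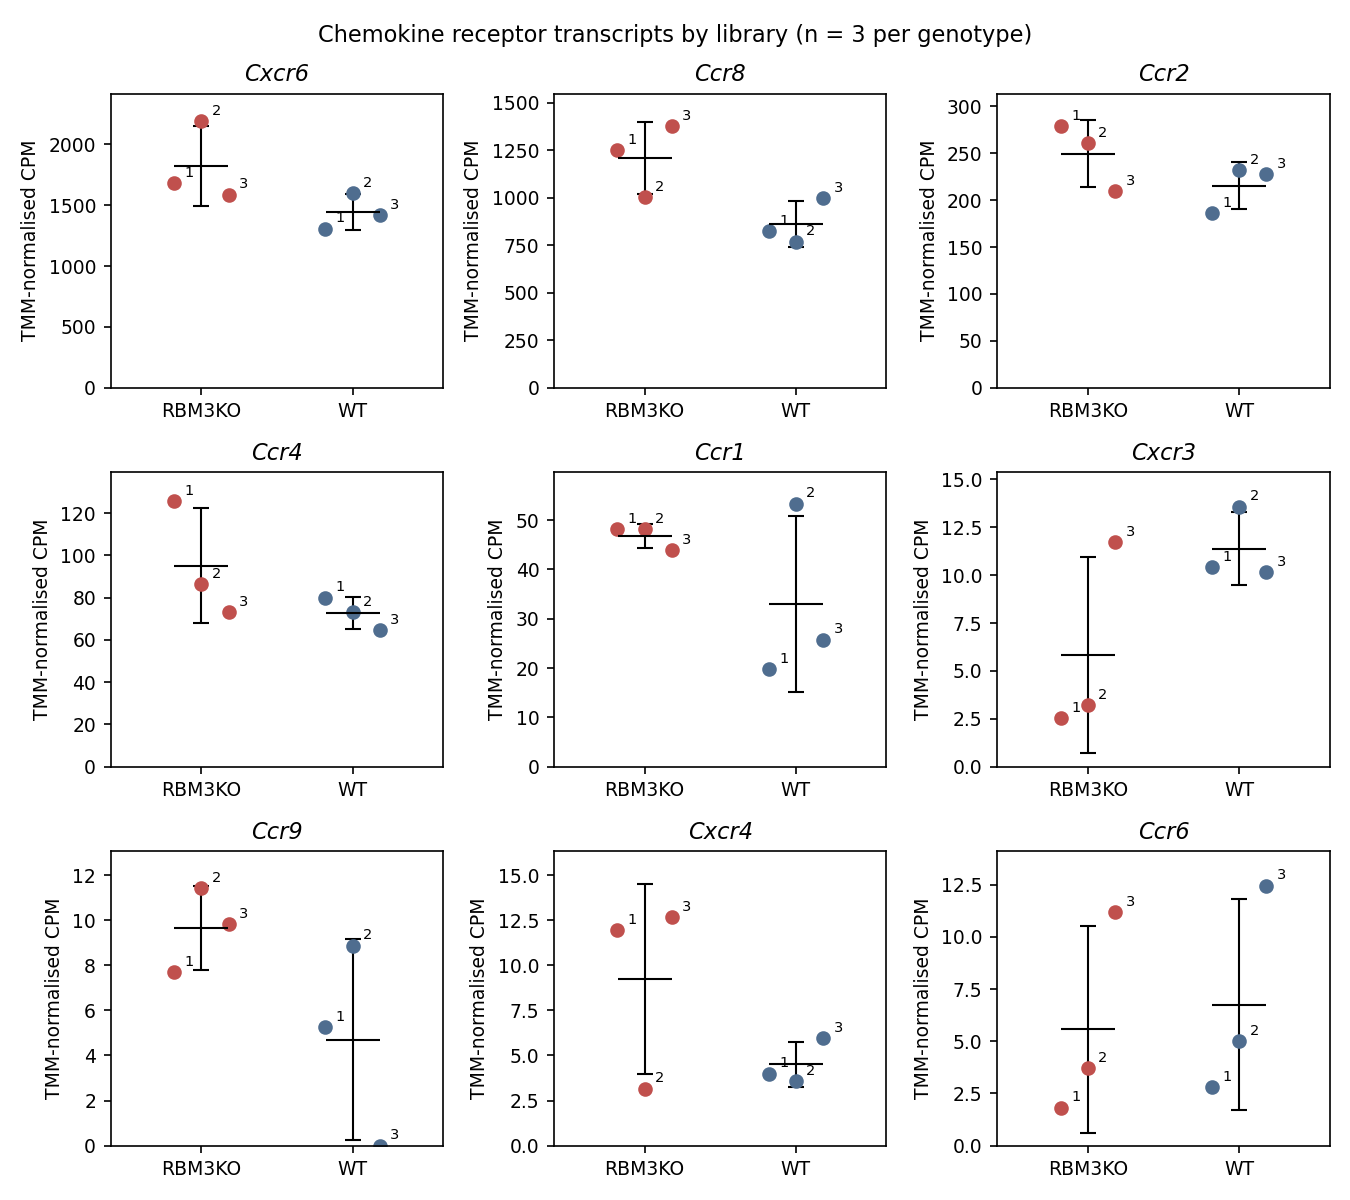
TMM-normalised CPM of each receptor gene by library, in order of mean level; points are libraries with their replicate numbers, bars are means and error bars SD (n = 3 per genotype). Ccr8 is the only one of the 9 panels in which all RBM3KO points (1002 to 1378 CPM) lie above all WT points (769 to 999 CPM).

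Ccr2 and Ccr1 are known mainly from monocytes and macrophages, where CCR2 draws cells towards CCL2 and CCR1 towards CCL3, CCL5 and related ligands. Ccr2 (chr9:124101950-124113557, plus strand) had 279, 261 and 210 CPM in RBM3KO libraries and 187, 232 and 228 CPM in WT libraries. RBM3KO library 3 lay within the WT range, and the log2 fold change was 0.21 (SE 0.13, 95% interval -0.08 to 0.51, edgeR adjusted p = 0.593), and it was 0.13 without RBM3KO library 1, 0.32 without RBM3KO library 3 and 0.12 without WT library 1. Both ends of this interval lie within 1 of 0 on the log2 scale.

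Ccr1 (chr9:123962124-123968692, minus strand) had 48.2, 48.1 and 43.9 CPM in RBM3KO libraries and 19.8, 53.3 and 25.8 CPM in WT libraries. WT library 2 stood above every other library, and WT libraries 1 and 3 below all 3 RBM3KO libraries. The log2 fold change was 0.50 (SE 0.33, 95% interval -0.22 to 1.23, edgeR adjusted p = 0.615), and it was 1.03 without WT library 2 (edgeR adjusted p = 0.159), 0.24 without WT library 1 (edgeR adjusted p = 0.933) and 0.35 without WT library 3 (edgeR adjusted p = 0.855). The 14 markers of monocytes, macrophages and dendritic cells summed to 28.7, 80.2 and 91.0 CPM in RBM3KO libraries and to 56.4, 156 and 198 CPM in WT libraries. The lysozyme gene Lyz2 and the monocyte surface gene Ly6c2 led that list, with Ly6c2 at 5.44 ± 3.45 CPM in RBM3KO and 40.7 ± 28.8 CPM in WT (edgeR adjusted p = 0.0525). Csf1r, the growth factor receptor gene that defines macrophages, had 0.856 ± 1.48 CPM in RBM3KO and 1.69 ± 1.502 CPM in WT. The dendritic cell genes Flt3 and Siglech had 0 CPM in RBM3KO, against 1.30 ± 1.13 and 1.32 ± 1.74 CPM in WT, and did not pass the filter. Siglech also had 0 CPM in WT library 3. Ly6c2 was lower in RBM3KO past the threshold with DESeq2 (adjusted p = 5.43e-05) and at 10 CPM or more in 3 libraries (edgeR adjusted p = 0.0429). None of the 9 tested markers of that list passed the main edgeR test. Estimates were above 0 for 3 of the 9. These were the dendritic cell gene Zbtb46, at 15.9 ± 6.94 CPM in RBM3KO and 9.30 ± 1.40 CPM in WT, and the macrophage genes Adgre1 and C1qb. Adgre1 had 3.31 ± 4.91 CPM in RBM3KO and 0.745 ± 1.29 CPM in WT, and C1qb had 0.913 ± 0.608 and 0.702 ± 0.654 CPM. RBM3KO library 1, with the lowest sum of all, had the highest Ccr2 and 48.2 CPM of Ccr1. WT library 1 had the lowest sum of its genotype and the lowest Ccr1 of all, while WT library 3 had the highest sum and 25.8 CPM of Ccr1. The part of myeloid transcripts in the Ccr1 values was not tested.

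The 4 receptors of the lowest tier had between 0 and 318 counts per library. The spread between replicates was wide for Ccr6 in both genotypes, for Cxcr3 and Cxcr4 in RBM3KO and for Ccr9 in WT. Cxcr3, the receptor for the interferon-induced chemokines CXCL9 and CXCL10, had 39, 54 and 87 counts in RBM3KO libraries, or 2.54, 3.22 and 11.7 CPM. In WT libraries Cxcr3 had 141, 231 and 259 counts, or 10.4, 13.6 and 10.1 CPM. RBM3KO library 3 lay within the WT range, and RBM3KO libraries 1 and 2 lay under it. Exact Poisson intervals for RBM3KO libraries 2 and 3 (2.42 to 4.21 and 9.38 to 14.4 CPM, 95%) did not overlap, so that spread was larger than counting error alone, which is all that such intervals cover.

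The log2 fold change of Cxcr3 was -0.99 (SE 0.59, 95% interval -2.30 to 0.32, edgeR adjusted p = 0.572), and -1.98 without RBM3KO library 3 (edgeR adjusted p = 0.140), -0.63 without RBM3KO library 1 (edgeR adjusted p = 0.770) and -1.60 with limma-voom (adjusted p = 0.180). The gene lies on the X chromosome (chrX:101731535-101734269, minus strand). Beside it, the 8 ILC1 and NK markers summed to 208, 153 and 161 CPM in RBM3KO libraries and to 246, 480 and 155 CPM in WT libraries, with WT library 2 highest, as for Cxcr3. In RBM3KO, library 1 had the highest sum and the lowest Cxcr3. The single markers, compared after their values were seen, did not all peak in that library. Tbx21 had 9.13, 10.87 and 18.04 CPM in RBM3KO libraries and 13.97, 31.74 and 14.49 CPM in WT libraries. It was highest in RBM3KO library 3 and WT library 2, as was Cxcr3. In RBM3KO, Ifng was also highest in library 3, Eomes, Ncr1 and Klrb1c in library 2, and Gzma, Gzmb and Prf1 in library 1. Estimates were below 0 for 7 of the 8 markers, 0 passed the test and the median log2 fold change was -0.68. Gzma, a granule protease gene with the highest mean CPM of that list, had 106 ± 33.4 CPM in RBM3KO and 161 ± 79.1 CPM in WT (edgeR adjusted p = 0.502). The part of ILC1 or NK transcripts in the Cxcr3 values was not tested.

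Cxcr4, the receptor for CXCL12 that holds precursors in the bone marrow (chr1:128588199-128592293, minus strand), had 11.9, 3.16 and 12.7 CPM in RBM3KO libraries and 3.99, 3.59 and 5.95 CPM in WT libraries. RBM3KO library 2 was the lowest of all 6, and RBM3KO libraries 1 and 3 were the highest. Cxcr4 had a log2 fold change of 1.03 (SE 0.60, 95% interval -0.29 to 2.35, edgeR adjusted p = 0.551), and it was 0.56 with limma-voom (adjusted p = 0.735).

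Ccr6, the receptor for CCL20 (chr17:8236043-8257141, plus strand), had 1.83, 3.70 and 11.2 CPM in RBM3KO libraries and 2.81, 5.00 and 12.5 CPM in WT libraries. The highest library of each genotype stood apart from the others, and the largest Ccr6 value was 6.12 times the smallest in RBM3KO and 4.43 times in WT. The log2 fold change was -0.30 (SE 0.77, 95% interval -2.0 to 1.40, edgeR adjusted p = 0.941), and its sign turned without RBM3KO library 1 (0.12) and without WT library 3 (0.49). The B cell markers summed to 42.3, 38.9 and 38.3 CPM in RBM3KO libraries, against 61.2, 81.0 and 88.6 CPM in WT libraries, and WT library 3 was highest in that sum and in Ccr6. In RBM3KO, library 3 was lowest in the sum and highest in Ccr6. All 5 tested B cell genes had estimates below 0, and 0 passed the edgeR test. Cd79a, a B cell receptor chain gene, had 4.46 ± 0.489 CPM in RBM3KO and 15.7 ± 2.65 CPM in WT (edgeR adjusted p = 0.0542), and it passed with DESeq2 (adjusted p = 0.00234), without TMM (edgeR adjusted p = 0.0470) and at 10 CPM or more in 3 libraries (edgeR adjusted p = 0.0302). The ILC3 markers summed to 582, 527 and 512 CPM in RBM3KO libraries and to 420, 397 and 465 CPM in WT libraries, so RBM3KO library 1 was highest in that sum and lowest in Ccr6. Of the 6 ILC3 genes 4 were tested, all 4 had estimates above 0 with a median log2 fold change of 0.83, and 0 passed. The ILC3 sum was made up mostly of Tmem176b, at 480 ± 48.8 CPM in RBM3KO and 381 ± 29.2 CPM in WT. The part of either cell type in the Ccr6 values was not tested.

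Ccr9, the receptor for CCL25, had 118, 191 and 73 counts in RBM3KO libraries and 71, 151 and 0 counts in WT libraries. In CPM these were 7.70, 11.4 and 9.83 in RBM3KO and 5.25, 8.88 and 0 in WT. WT library 3 was the deepest of the 6, and a count of 0 there allows up to 0.117 CPM (3 counts per library, counting error only). Ccr9 had a log2 fold change of 1.04 (SE 1.12, 95% interval -1.42 to 3.50, edgeR adjusted p = 0.817), and it was 0.45 without WT library 3 (edgeR adjusted p = 0.876), 1.90 without WT library 2 (edgeR adjusted p = 0.732) and 4.24 with limma-voom (adjusted p = 0.227). In GENCODE M21, Ccr9 (chr9:123678439-123784330, plus strand) shares exon bases with 3 other genes, among them 1932 bases with an opposite-strand transcript that is not in the count table, so single values of Ccr9 are uncertain.

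**Figure D3:**
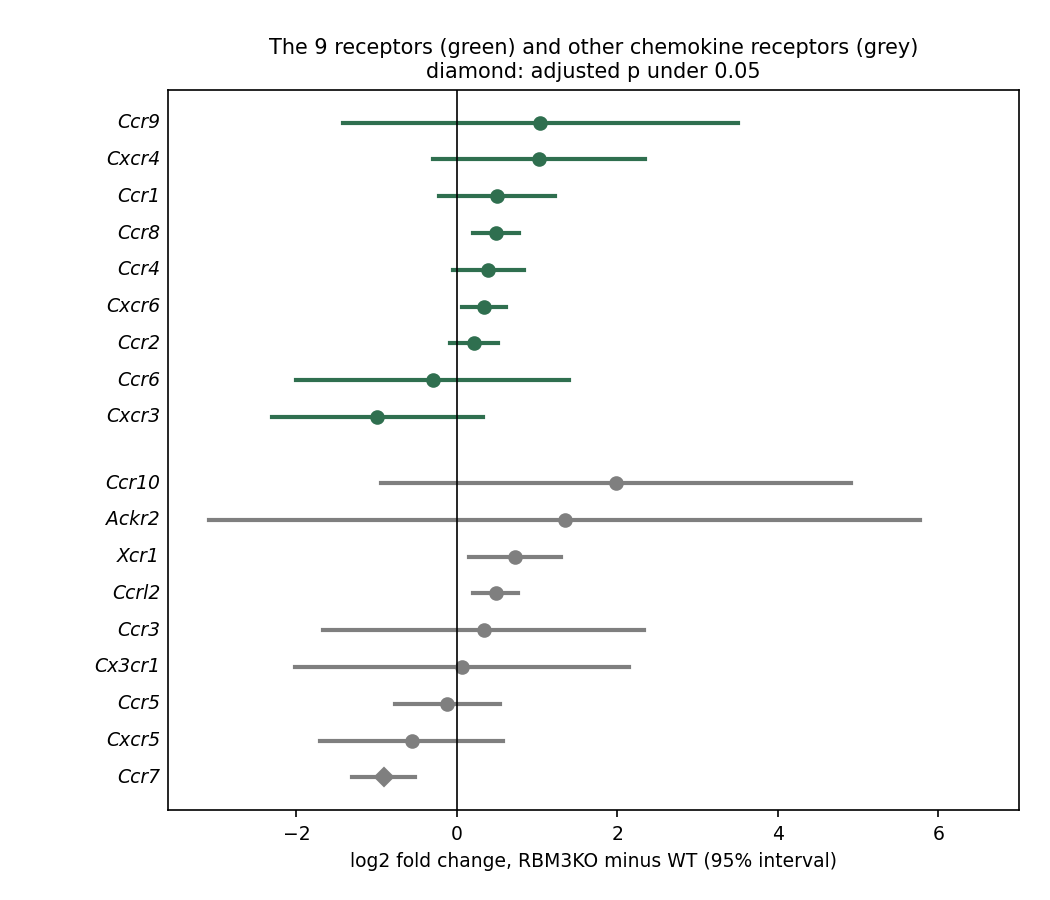
Log2 fold change (RBM3KO minus WT) with its 95% interval for the 9 receptors in green and for the 9 other tested chemokine receptor genes in grey, n = 3 per genotype. Among the 9 receptors, the intervals of Ccr8 (0.20 to 0.77) and Cxcr6 (0.06 to 0.61) lie above 0 without adjustment for the number of genes tested, and the diamond marks Ccr7, the one gene of the plot past the adjusted threshold.

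Reads were spread very unequally over the 9 receptors, and their replicate spread differed. For Ccr8, Cxcr6, Ccr2 and Ccr4 the highest library was between 1.33 and 1.72 times the lowest in RBM3KO and between 1.22 and 1.30 times in WT. For Ccr6, Cxcr3 and Cxcr4 it was between 4.00 and 6.12 times in RBM3KO and between 1.34 and 4.43 times in WT. For Ccr1 it was 2.69 times in WT, with RBM3KO libraries between 43.9 and 48.2 CPM, and for Ccr9 it was 1.48 times in RBM3KO with a library at 0 in WT. The 95% intervals of the log2 fold change of Ccr1, Ccr6, Ccr9, Cxcr3 and Cxcr4 include changes of more than 1 on the log2 scale.

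Among the other chemokine receptor genes, 11 of 14 listed were in the table and 9 were tested, of which 1 fell and 0 rose (background 1.00% lower and 0.246% higher). The gene that fell was Ccr7, the receptor for lymph node chemokines, with 63.3, 46.6 and 65.4 CPM in RBM3KO libraries and 127, 93.1 and 109 CPM in WT libraries (log2 fold change -0.91, SE 0.18, edgeR adjusted p = 0.0393). No fit that left out 1 of the 6 libraries kept that call. Ccrl2, a chemerin-binding relative that does not signal by itself, was named after its values were seen. It had 220, 232 and 224 CPM in RBM3KO libraries and 133, 179 and 172 CPM in WT libraries, with no overlap and no call (log2 fold change 0.48, SE 0.13, edgeR adjusted p = 0.120). Xcr1, also named after its values were seen, had 44.6, 44.5 and 26.5 CPM in RBM3KO libraries and 21.2, 24.7 and 24.5 CPM in WT libraries. It too separated upward without a call (log2 fold change 0.72, SE 0.26, edgeR adjusted p = 0.268). Of all tested genes, 8.43% separated upward. The median log2 fold change over the 9 tested genes was 0.33.

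Of the ligands of the 9 receptors, 17 of 18 were in the table and 12 were tested, of which 0 passed the test, with a median log2 fold change of 0.14. The ligand with the highest CPM was Ccl1, which binds CCR8. It had 194, 330 and 202 CPM in RBM3KO libraries and 133, 148 and 228 CPM in WT libraries. The genotypes overlapped at WT library 3 (log2 fold change 0.51, SE 0.23, edgeR adjusted p = 0.413). Its estimate was 0.22 without RBM3KO library 2 and 0.78 without WT library 3. Ccl8, the other mouse CCR8 ligand, stood at 0.830 ± 0.967 CPM in RBM3KO and 0.614 ± 0.649 CPM in WT and did not pass the filter. Ccl5, a ligand of CCR1 among others, had 84.0 ± 13.8 CPM in RBM3KO and 121 ± 30.5 CPM in WT (log2 fold change -0.53, SE 0.19, edgeR adjusted p = 0.272). Without WT library 2 the Ccl5 estimate was -0.31.

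Of the genes that carry the receptor signal to the cytoskeleton, 18 of 19 were tested and 0 passed the test, with a median log2 fold change of 0.10. The highest mean CPM were those of Rac2, a GTPase of blood cell migration, at 2530 ± 201 CPM in RBM3KO and 2407 ± 60.3 CPM in WT (edgeR adjusted p = 0.829), and Cdc42, a GTPase of cell polarity, at 1008 ± 73.8 and 866 ± 69.7 CPM (edgeR adjusted p = 0.372). Of 15 tested genes that switch receptors off, 1 fell and 0 rose (background 1.00% lower and 0.246% higher), with a median log2 fold change of 0.14. The gene that fell was Grk6, a kinase that phosphorylates active G protein-coupled receptors, CXCR4 among them. Grk6 had 66.7, 86.9 and 74.7 CPM in RBM3KO libraries and 171, 153 and 182 CPM in WT libraries, with no overlap (log2 fold change -1.15, SE 0.14, edgeR adjusted p = 0.00534). The call ended without WT library 1 (edgeR adjusted p = 0.0530) and held without each of the other 5 libraries in turn.

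**Figure D4:**
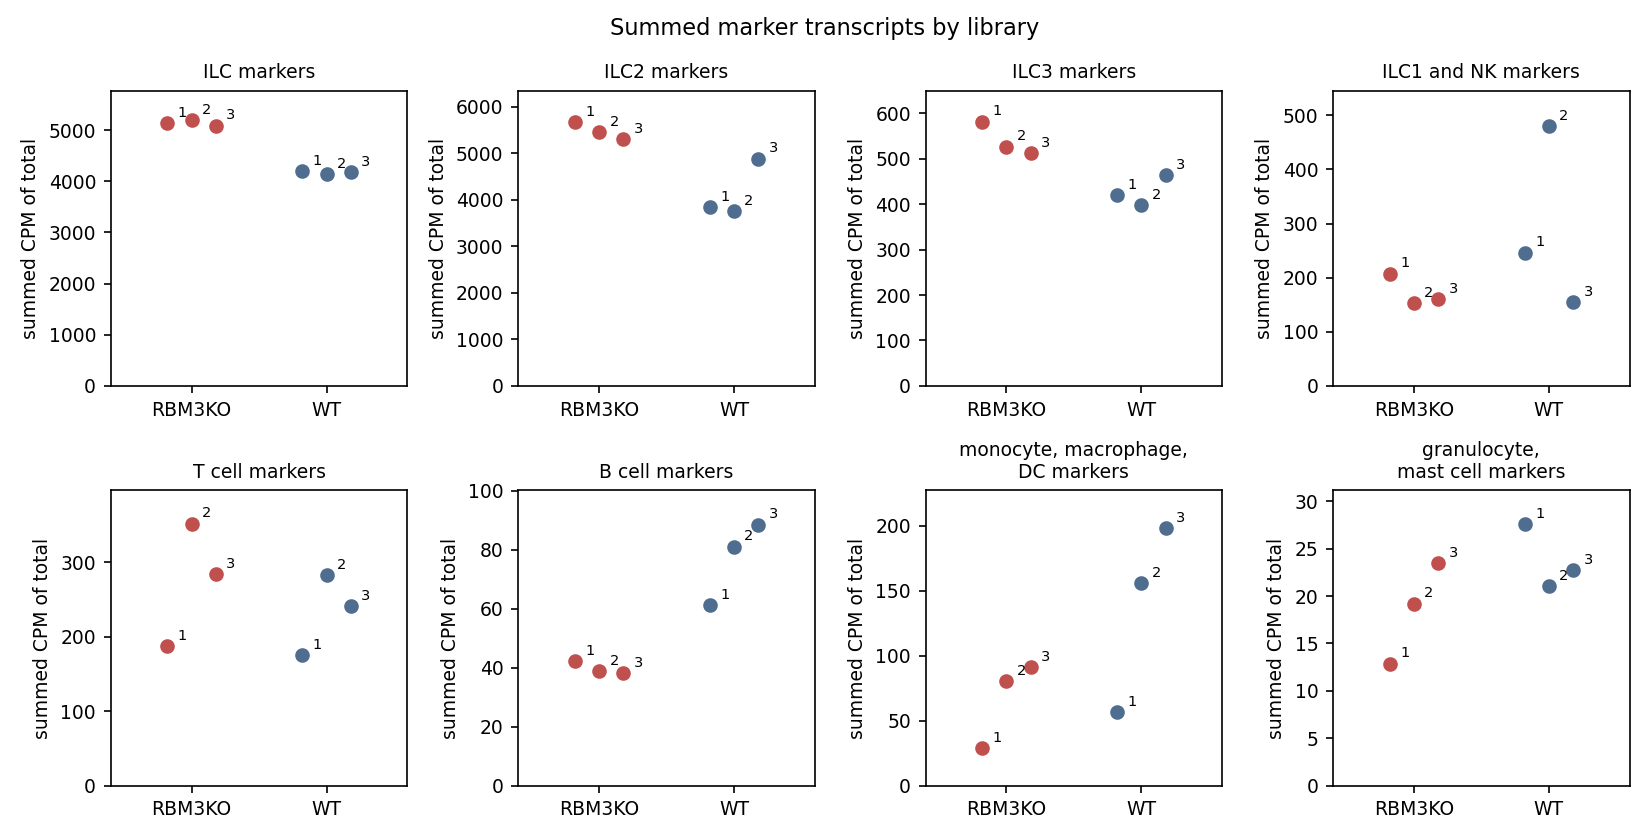
Summed CPM (of the total count, without TMM) of 8 marker lists by library; points are libraries with their replicate numbers, RBM3KO in red and WT in blue. The ILC markers lie between 5087 and 5197 CPM in RBM3KO and between 4142 and 4203 in WT, and the B cell markers between 38.3 and 42.3 CPM in RBM3KO and between 61.2 and 88.6 in WT.

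Markers of T cells and of granulocytes and mast cells were measured in the same libraries, and 0 of their members passed the edgeR test. T cell markers summed to between 187 and 352 CPM in RBM3KO libraries and between 175 and 283 in WT libraries, with 8 of 8 in the table and 5 tested. Most of that sum was Cd3g in every library. Estimates were above 0 for 2 of the 5, with a median log2 fold change of -0.10. Among the lower genes, named after their values were seen, Cd3d had 7.73 ± 2.98 CPM in RBM3KO and 16.7 ± 13.9 CPM in WT. Cd8b1 had 0.494 ± 0.855 CPM in RBM3KO and 5.92 ± 5.42 CPM in WT. Granulocyte and mast cell markers summed to between 12.9 and 23.5 CPM in RBM3KO libraries and between 21.02 and 27.6 in WT libraries, with 5 of 11 in the table and 3 tested. The mast cell protease gene Cpa3 led that list at 13.5 ± 1.59 CPM in RBM3KO and 17.1 ± 4.55 CPM in WT. The regulatory T cell factor Foxp3, whose cells also carry CCR8 and CCR4, had 0.816 ± 1.41 CPM in RBM3KO and 0.0196 ± 0.0339 CPM in WT. Its counts were 0, 41 and 0 in RBM3KO libraries and 0, 1 and 0 in WT libraries, and it did not pass the filter.

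As a description of shared pattern, the genes at a mean of 10 CPM or more whose log2 CPM followed each leading receptor most closely over the 6 libraries were picked from 7607 genes. They were Nr1h2 (Pearson r = 0.994) and Hps5 (0.989) for Cxcr6, Srgn (0.993) and Egr1 (0.992) for Ccr8, and Lrrc8c (0.995) and Psd4 (0.988) for Ccr2. With 6 libraries in 2 genotypes and so many genes searched, values of this size are found readily, and they are given without a test. No gene was shared between the 3 pairs.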

How the data were processed

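The values the authors deposited are raw read counts, 1 row for each gene symbol and 1 column for each sample. Tools named in the submitters' processing notes, without their roles, are STAR 2.6.1c, featureCounts 1.6.5 and Bowtie 1.0.0, and the build named there is mm10. The sources used here state no gene annotation, strand setting or read filter. Smart-seq2 in its standard form marks neither strand nor molecules, so PCR copies are counted. Genes were filtered with filterByExpr (11382 genes, holding 99.9% of counts), scaled by TMM and tested with edgeR 4.0.16 (R 4.3.3, robust quasi-likelihood fit, no covariate), with Benjamini-Hochberg adjustment over all tested genes. The SE is the log2 fold change divided by the square root of F, and the 95% interval uses the fit's degrees of freedom. A design of 3 against 3 cannot reach an exact permutation p under 0.1. Alternatives were DESeq2 1.42.0, limma-voom 3.58.1, other scalings and filters, a non-robust fit, a replicate block and leaving out each library. No pair of libraries was identical (the closest pair differed by a chi-square of 20.0 per degree of freedom), so all 6 were kept. Coordinates (1-based) and lengths came from GENCODE M21, on the assembly of mm10. Named are Rbm3, the 9 receptors and, per list, genes past the threshold or else the 2 with the highest mean, with others marked where they stand or named as the defining marker of a cell type. The members and lists were chosen with earlier results of these data known.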

Additional observations from a re-analysis of the deposited data

How the results depend on the processing

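No receptor changed the sign of its estimate under the 14 alternatives (13 for Ccr6, Ccr9 and Cxcr4, which did not reach 10 CPM in 3 libraries) except Ccr6 (between -1.29 and 0.49 when 1 library was left out, above 0 without RBM3KO replicate 1, at 0.12, and without WT replicate 3), and 0 receptors were called except Ccr8, with DESeq2 (1 receptor, adjusted p = 0.00909) and with the replicate block (1 receptor, adjusted p = 0.0352). Ccr8 kept a log2 fold change between 0.38 and 0.61 and Cxcr6 one between 0.18 and 0.43. Same-numbered libraries deviated together by r = 0.06, 0.06 and 0.01, and differently numbered ones by r between -0.07 and 0.02. Values this small cannot decide whether the numbers pair the samples, and the labels do not say. The replicate block called 149 genes in place of 142. With the block Il2rg was not called (adjusted p = 0.0535), Ly6c2 (0.0105) and the ILC2 gene Areg (0.0374) were, and Ccr9 had an estimate of 1.90. Areg was also called without WT replicate 3 (adjusted p = 0.0199). The estimate of Cd3e, -0.10 in the main analysis, was 0.0038 with limma-voom. With 1 library left out, estimates lay between -0.46 and 0.29 for Cd3e (above 0 without RBM3KO replicate 1, RBM3KO replicate 3 or WT replicate 2), between -1.24 and 0.40 for Gzmb (above 0 without WT replicate 2) and between -1.67 and 0.18 for Lyz2 (above 0 without WT replicate 3). Genes called in all numbered 434 with DESeq2 (158 higher, 276 lower). Those called higher, 28 in the main analysis, numbered 16 without TMM, 52 with limma-voom, 48 with no filter and 59 at 10 CPM or more in 3 libraries. Listed genes outside the receptors called, 3 in the main analysis, were 12 with DESeq2 and 7 at 10 CPM or more in 3 libraries. Leaving out 1 library in turn gave between 12 and 99 genes in all, between 1 and 18 higher, between 11 and 85 lower, 0 receptors and between 0 and 4 other listed genes, and fewer samples give the test less to work with. The cause of the other differences was not tested. With 28 to 318 counts where detected, Ccr6, Ccr9, Cxcr3 and Cxcr4 had the fewest counts of the 9 receptors in every library.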
